A study of Mus musculus with 2 samples.

Results

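Contigs just downstream of genes are stretches of stranded read coverage that lie outside every annotated gene and begin a short way past the 3′ end of a gene on the same strand. They were chosen by measured signal, length and position from the authors' contig list: a length of at least 200 nt, a signal of at least 0.5, no overlap with a gene span on either strand in the ENSEMBL 65 gene table, and a start within 10 kb past the 3′ end of a same-strand gene. These conditions kept 243 of 677743 contigs, next to 214 genes, called hosts here. Of the 53184 contigs that passed the length and signal conditions, 1324 lay outside all gene spans. These values are therefore given as a description with no test. They had been grouped as longer 3′ ends or readthrough, but a link to the host was found for 93 of the 243. Links of this kind were also found for contigs before the 5′ ends of genes, as given below. A further 53 members had no link and lay on a gene of another identifier in a later annotation.

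All libraries belonged to 1 group, fetal liver of embryonic day 18 from C57BL/6J mice, taken from littermates labelled as pooled males and females. It was rRNA-depleted poly(A)+ RNA longer than 200 nt with spike-in RNAs added, read as stranded pairs in 2 libraries numbered as biological replicates 1 and 2. No conditions could be compared, and no p-value is given. Contigs, junctions and host ends are on the mouse build mm9.

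The contig signal covers both libraries together, so a member has no signal per replicate. At the threshold of 0.5 it stands for a mean coverage of 32.7 reads per base. Mouse genes held 159127988 and 136904873 expected counts in replicates 1 and 2, and the junction list 125662357 and 105325114 reads. The hepatocyte genes Alb and Afp stood at 75316 and 75756 TPM and at 12676 and 13893 TPM. Xist, the RNA of the inactive X chromosome, stood at 99.1 TPM in replicate 1 and at 0.02 TPM in replicate 2, which goes against the pooled-sex label of replicate 2.

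A messenger RNA normally ends where the transcript is cut past a poly(A) signal, most often AAUAAA, and many genes hold several such signals and so several 3′ ends. Choosing a farther signal gives a longer 3′ untranslated region, while RNA polymerase that runs past the last signal gives readthrough RNA. A downstream contig can also belong to an unannotated gene, or to a pseudogene that resembles a gene transcribed elsewhere.

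The sequences shown are transcript ends from a later annotation, GENCODE M21 on mm10, for hosts whose span there takes in the member, since they can be set beside the poly(A) signal. For 8 of 26 such members an end lay within 50 nt of the far edge of the contig. The last 30 bases of those 8 transcripts are printed 5′ to 3′ from GENCODE M21, with AATAAA or ATTAAA, the DNA letters of the common poly(A) signals, in capitals, and with the end listed in ENSEMBL 65 where GENCODE M21 still holds it.
Fcgr2b, far end, chr1:170958617-170958646, minus strand: tgaattAATAAATAAAacttgcctctcata
Fcgr2b, ENSEMBL 65 end, chr1:170960558-170960587, minus strand: actttaatagtaaaatgttgtaaaaacaaa
Gatad2b, far end, chr3:90363378-90363407, plus strand: ttAATAAAgaaaggaatggtttctaagctt
Gatad2b, ENSEMBL 65 end, chr3:90358091-90358120, plus strand: ggtgcctaccatacatggaaagcaaaaccg
Trip4, far end, chr9:65828930-65828959, minus strand: tttactatccAATAAAactatctatggacc
Trip4, ENSEMBL 65 end, chr9:65831136-65831165, minus strand: aggaattggctttttctttttgtttttccc
Mrps17, far end, chr5:129722527-129722556, plus strand: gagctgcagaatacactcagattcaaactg
Mrps17, ENSEMBL 65 end, chr5:129718846-129718875, plus strand: tgactagtaaatttaaattttttccccctt
Epsti1, far end, chr14:78002628-78002657, plus strand: ctcaaaaAATAAAaagatgaaacaaagttc
Pcsk5, far end, chr19:17432319-17432348, minus strand: aacaATTAAATAAAgacttcagctgctaaa
Pou2f2, far end, chr7:25087344-25087373, minus strand: aaaAATAAAaaactaaaaactgtacagaga
Sntb2, far end, chr8:107019685-107019714, plus strand: ctttttattgtaAATAAAaagttgctttta
AATAAA stood in 7 of the 8 far ends, Mrps17 being the exception, and neither hexamer stood in the 4 ENSEMBL 65 ends. The difference was less sharp over all 24 hosts of this class, where either hexamer stood in 14 of 24 GENCODE M21 ends (58.3%) and in 3 of the 12 ENSEMBL 65 ends still listed (25%). The search covered the transcript's own strand only, and overlapping matches, as in Pcsk5, are all in capitals. Over all 58797 protein-coding transcripts of GENCODE M21, 44.1% held AATAAA or ATTAAA in their last 30 bases. The limit of 50 nt was chosen after the distances were seen.

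The members lay closer to a gene end than contigs on the other sides of genes did. Their distance ran from 6 to 9908 nt, with a median of 3396 nt and quartiles of 1086 and 6352 nt. Within 1000 nt of the gene end stood 58 of the 243 members (23.9%), against 32 of 231 contigs (13.9%) that passed the same filters before the 5′ end of a same-strand gene, and 17 of 160 (10.6%) past a 3′ end but on the other strand. The excess was in the first kb: 31 members lay in the first 500 nt and 27 in the next 500 nt, against 19 and 13 contigs before 5′ ends. The 3 sets share contigs, since 63 members also lay before another gene and 41 past the end of a gene on the other strand, and no test was made between them. The median length was 1121 nt for members, 901 nt before 5′ ends and 898 nt past 3′ ends on the other strand.

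**Figure D1:**
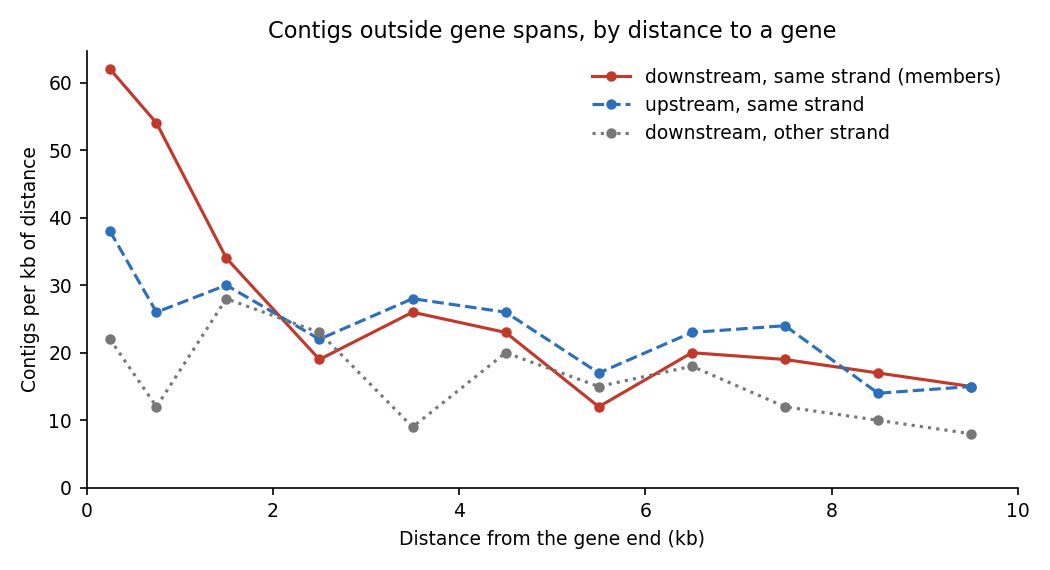
Number of contigs per kb of distance (y axis) against distance from the gene end in kb (x axis), for the 243 members, the 231 contigs before a 5′ end and the 160 past a 3′ end on the other strand; each point is 1 bin of 0.5 or 1 kb. Members stand above both other sets in the first kb, with 31 and 27 contigs in its 2 bins, and run among them from 2 kb on.

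The signal spanned a wide range, and most members were weak. It ran from 0.5 to 268 with a median of 0.912, and 134 members lay below 1 and 99 between 1 and 10. The 10 members at 10 or more held 60.4% of all covered bases of the members. The members nearest the threshold were those past Gm10521 (0.5), Ptk6 (0.5) and ENSMUSG00000057808 (0.502). The contigs just below it, which are not members, lay past Dnajb9 (0.499), n-R5s30 (0.498) and Tyms (0.497).

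The 10 strongest members mostly lay on other genes or on none. Of these, 5 lay on a pseudogene of GENCODE M21, 1 on a protein-coding gene and 4 on no gene, and 1 was joined to its host by any splice read. The strongest, of 581 nt and signal 268, lay 7594 nt past Gm15569 (chromosome 15, 86025176 to 86025756, plus strand). Its host stood at 0 and 0.04 TPM in replicates 1 and 2, and no contig covered any part of the stretch between them. The next, of signal 249, lay 8443 nt past Pa2g4, a growth-regulated RNA-binding protein gene, and on Rpl41, which encodes a protein of the large ribosomal subunit (chromosome 10, 127984869 to 127986379, minus strand). Rpl41 stood at 1456 and 1978 TPM and Pa2g4 at 57.4 and 64.3 TPM. The member was joined to Pa2g4 by 2 different junctions of 1 read each, 1 in each replicate, so neither was seen in both. The one taken as the main junction spanned 11357 nt and lacked the mark for a canonical splice site. The strongest junction inside the member had 6504 reads. The third, of 315 nt and signal 241, lay 8233 nt past Rimbp3, which stood at 0.02 TPM in both replicates, and on no gene of GENCODE M21.

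Pseudogenes held most of the next ones. The member 2694 nt past the small nuclear RNA gene Gm22019 (signal 111) lay on Gm5905, and the one 425 nt past Elane, the neutrophil elastase gene (signal 95.5), on Gm19810. Those past Gm22519 (46.7), past Actn2, a muscle actinin gene (29.6), and past Lrrd1 (10.7) lay on Gm2999, Gm47021 and Rps4x-ps. All 5 are processed pseudogenes in GENCODE M21, and such copies share sequence with their parent genes, so which locus the reads came from is uncertain. The remaining strong members, past the small nucleolar RNA gene Gm24598 (47.8) and past Gm5578, itself a processed pseudogene (11.6), lay on no gene.

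For several of these the contig signal and the authors' density for assembled exons were far apart. The exon that overlapped the Gm15569 member most had 0.167 and 0.256 RPKM in the 2 libraries, and that of the Pa2g4 member 0.116 and 0.461 RPKM. The exon on the Actn2 member was listed at 0 in both libraries, against a contig signal of 29.6. The Rimbp3 and Gm22019 members had 33.6 and 29.7 RPKM and 33.5 and 36.1 RPKM. Over the 186 members with an exon above 0, the signal was 6.97 per RPKM at the median, with quartiles of 3.67 and 16.4. How reads that match several places entered each of these values is not given in the sources used here, and their part was not tested.

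**Figure D2:**
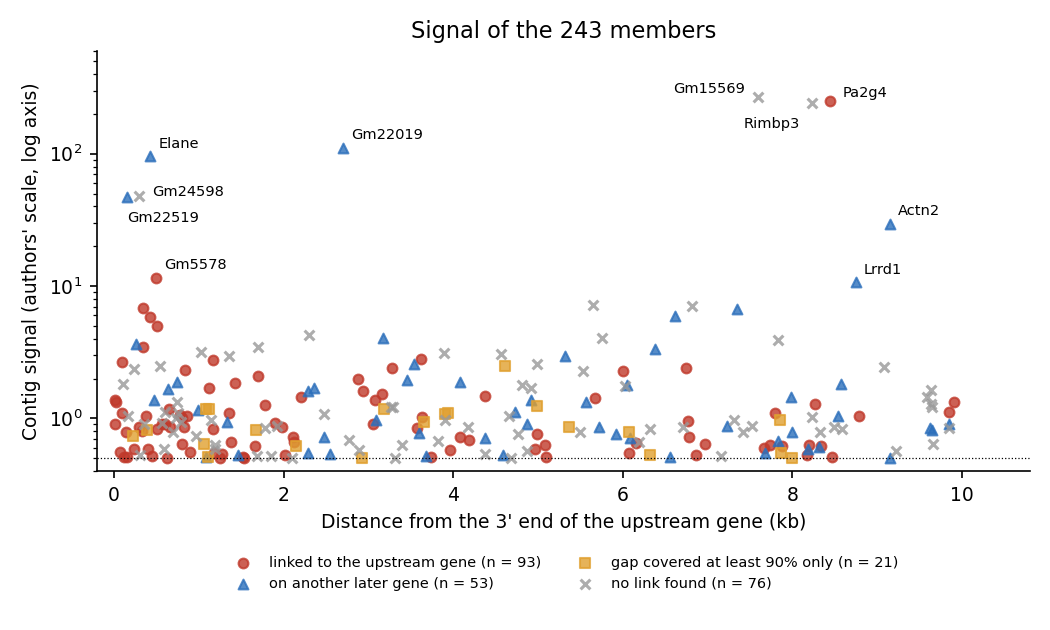
Contig signal on the authors' scale (y axis, log) against distance from the 3′ end of the host in kb (x axis) for the 243 members, marked by what ties them to a gene; the dotted line is the threshold of 0.5 and the 10 strongest are named by host. The strong members stand apart at both ends of the window, and 2 of the 10, Pa2g4 and Gm5578, carry the mark for a link to the host. The link of Pa2g4 rests on 2 junctions of 1 read each.

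Sorted by the evidence, 93 of the 243 members (38.3%) had some link to the host. A link was a splice read between them, an assembled model over both, or a host span of GENCODE M21 that takes in the member. A further 53 (21.8%) had no such link and lay on another same-strand gene of GENCODE M21. For the 30 members whose host identifier GENCODE M21 no longer lists, a link by host span could not be found. In 21 (8.64%) the only tie was coverage of at least 90% of the stretch between gene and member, and 76 (31.3%) had no tie of any of these kinds. Of those 76, 47 held a splice junction that led from the member to a place other than the host. The median distance was 1777 nt for linked members, 4872 nt for those on another gene, 3649 nt for those with coverage only and 4036 nt for the rest. Linked members were also longer, at a median of 2111 nt against 494 nt for those with no tie. A longer member holds more bases in which a junction end or a model can fall, so length and link are not independent measures.

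Splice junctions joined 47 members (19.3%) to the host, through 1386 reads in replicate 1 and 1296 in replicate 2. That is 0.0011% and 0.00123% of all junction reads. In 30 of them both replicates held a joining read, in 9 replicate 1 only and in 8 replicate 2 only. The reads were uneven: 13 members rested on 1 read, 21 had 10 or more, and the 5 with the most held 57.3%. With at least 2 reads of 1 junction in each replicate, 22 members (9.05%) remained. None of the joining junctions was marked as annotated, and in 37 of the 47 the main one carried the mark that, by its name, stands for a canonical splice site. Contigs before 5′ ends were joined to their gene more often, 70 of 231 (30.3%), or 43 (18.6%) under the stricter count. Junctions from inside a member to a place outside it were found for 174 members, and in 127 of these none led to the host.

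Pkhd1l1, which encodes a large fibrocystin-like membrane protein, had the most. Its member (chromosome 15, 44432326 to 44433900, plus strand, signal 1.02) began 3637 nt past the gene and was reached by 257 reads in replicate 1 and 320 in replicate 2. Nearly all crossed 1 intron of 4024 nt, with 254 and 317 reads. The gene itself was low, at 2.15 and 3.11 TPM. In GENCODE M21 the span of Pkhd1l1 takes in the near part of the member, of which 13.3% is exonic.

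The next 2 hosts are identifiers that GENCODE M21 no longer lists, and their members lay in other genes there. The member 1693 nt past ENSMUSG00000075411 (signal 2.1) was joined by 193 and 217 reads and lay in Bin2, a membrane-binding BAR-domain gene, at 13.0 and 17.4 TPM. Its main junction, with 183 and 212 of these reads, lacked the canonical mark, which the main junctions of the other 4 of these hosts carried. The member 894 nt past ENSMUSG00000075118 (signal 0.558) was joined by 97 and 99 reads and lay in Gpr137b-ps. Cr1l, the complement regulator of mouse red cells also called Crry, was joined to its member 4377 nt away (signal 1.47) by 95 and 87 reads, and 5830473C10Rik to its nearer member (1272 nt, signal 0.539) by 116 and 57 reads. In all 5 both replicates held many joining reads, and the members' own signals were modest.

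Other hosts, chosen after their values were seen, had fewer reads over a range of functions. The interferon-induced gene Epsti1 was joined to its member by 71 and 51 reads, and Fam126a by 74 and 55. Aak1, a kinase of clathrin adaptors, had 36 and 26 reads into a member of 8682 nt. Alox5ap, which presents arachidonic acid for leukotriene synthesis, had 14 and 15, and the thiopurine methyltransferase gene Tpmt had 15 and 8. The cytochrome P450 gene Cyp2b9 was the least even of those named here, with 26 and 4. C4b, of the complement cascade, was joined to a contig 22 nt past its end by 23 and 13 reads across 135 nt. It has a near-identical neighbouring copy in the mouse, so its reads are uncertain.

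**Figure D3:**
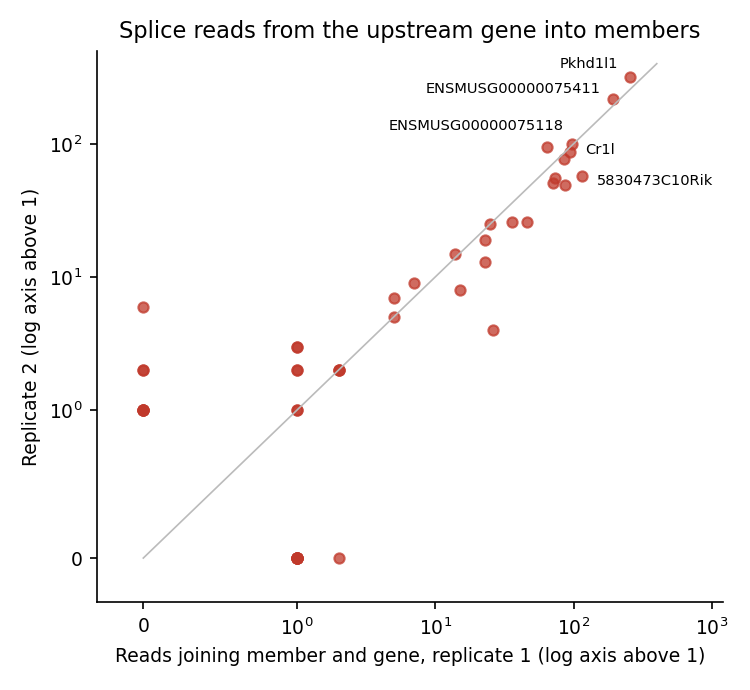
Splice reads that join 47 of the members to their hosts in replicate 1 (x axis) and replicate 2 (y axis), both linear up to 1 and logarithmic above, with the line of equality; the 5 hosts with the most reads are named. Most members with many reads lie near the line, and those seen in 1 replicate hold at most 6 reads.

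Assembled models gave a second, partly separate link. A model overlapped 194 members, and in 58 (23.9%) the same model also overlapped the host. Of these, 22 were among the members joined by splice reads, so that 83 had either link. Close members had it more often, with 23 of 58 (39.7%) within 1000 nt, 12 of 34 (35.3%) in the next 1000 nt and 10 of 83 (12.0%) beyond 5000 nt. Splice links varied less with distance, at 14 of 58 (24.1%) within 1000 nt and 17 of 83 (20.5%) beyond 5000 nt. Among contigs before 5′ ends, 50 of 231 (21.6%) shared a model with their gene. Either link was found for 88 of those 231, so linked contigs were not particular to the downstream side.

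The stretch between host and member was often covered on the host's strand. Contigs covered 54.4% of it at the median, and at least 90% in 73 of the 243 members, while on the other strand the median was 0 and 13 members reached 90%. For contigs before 5′ ends the median on their own strand was 25.9%, with 31 of 231 (13.4%) at 90%. Past 3′ ends on the other strand it was 7.86%, with 19 of 160 (11.9%) at 90%. In 65 members under 10% of the stretch was covered. Of these, 11 were still joined to the host by a splice read or a shared model, as in C4b, where the stretch was very short. In 181 members a contig covered the host's 3′ end itself, and it ran a median of 469 nt past that end.

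**Figure D4:**
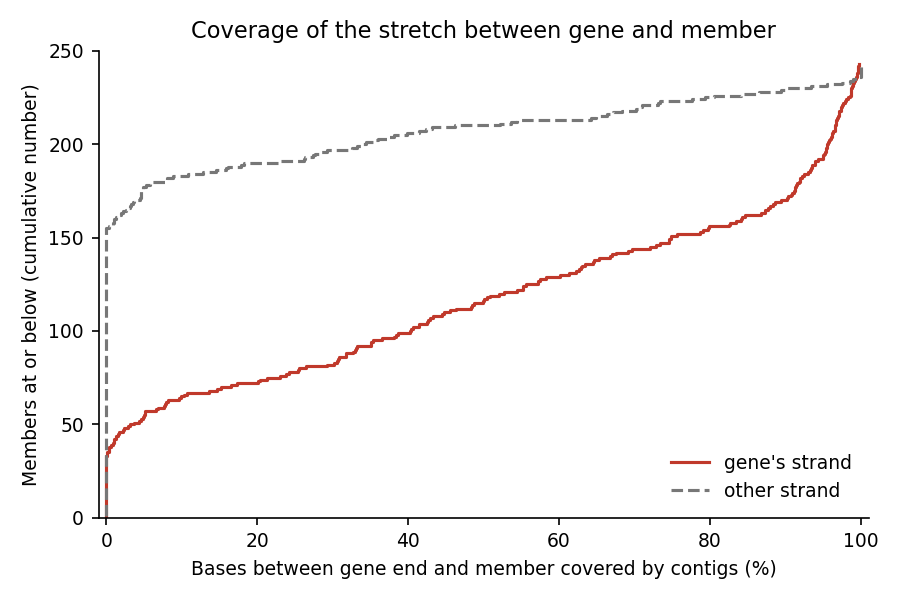
Cumulative number of members (y axis) against the percent of bases between host end and member that contigs cover (x axis), on the host's strand and on the other strand. The line of the host's strand climbs late, with 73 members at 90% or more, while that of the other strand starts high because most members have no coverage there.

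Nudt21 encodes the smaller subunit of the cleavage factor that binds UGUA and promotes the use of far poly(A) sites, and was 1 of 29 measured 3′ end processing genes, and the one with a member, beside hosts making up 0.574% of all 37310 gene spans. Its member, of 1899 nt and signal 1.98 (chromosome 8, 96538526 to 96540424, minus strand), began 2879 nt past the gene. The contig over the gene's end reached 2840 nt past it and contigs covered 98.7% of the stretch, against 0 on the other strand. An assembled model held both, and no splice read joined them. Nudt21 stood at 23.8 and 24.9 TPM.

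Compared with the later annotation, the 222 members that could be placed fell into several classes. The host's own span had grown to reach 26 of them (11.7%), another same-strand gene held 72 (32.4%), a gene on the other strand only held 6 (2.70%) and no gene held 118 (53.2%). A host counted only under its own identifier. The 30 members whose host is no longer listed could therefore not enter the class of grown hosts, and where placed they fell in the other classes. The other 21 could not be placed. Of the contigs before 5′ ends, 213 could be placed, and the later span of their own gene took in 33. Measured by span length alone, 16 of the 213 members whose host is still listed (7.51%) had a host that grew by at least the distance to the member's far edge, and by placed ends 9 of 222 (4.05%) did. Members reached by the grown host lay nearer, at a median of 1224 nt, against 4802 nt for those on another gene and 3277 nt for those on none. Their stretch was covered over 92.9% at the median, against 30.5% and 57.3%.

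The 26 members within grown hosts belonged to 24 genes. They included receptors, such as Fcgr2b, the inhibitory receptor for IgG (signal 1.69, 1115 nt past the old end), and Il6ra, the receptor for interleukin 6 (0.826, 1165 nt). They also included nuclear proteins, such as Pou2f2, the B-cell factor Oct-2 (0.719, 4074 nt), Gatad2b of the NuRD repressor complex (0.592, 4962 nt), Trip4 (0.66, 1374 nt) and the chromatin remodeller Srcap (0.72, 2107 nt). Others were Mrps17 of the mitochondrial ribosome (0.86, 289 nt), the protease Pcsk5 (0.867, 655 nt), the adaptor Sntb2 of the dystrophin complex (1.17, 650 nt) and Epsti1 (1.37, 3075 nt). The strongest of the class was the farther member of 5830473C10Rik, at 2.81, and the weakest stood at 0.506. A GENCODE M21 end lay within 50 nt of the contig's far edge in 8 of the 26 and within 500 nt in 13, the ends printed above being those 8. In Sntb2 the 2 positions were the same base, and in Mrps17 they were 1 nt apart. Past Trip4 the stretch was covered over 96.6% on its own strand and nearly throughout on the other, so coverage there was not specific to the host's strand.

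For 6 of these genes the transcripts that reach the member were already in the annotation with which the authors made the TPM values, so the share of host TPM in them could be read for each replicate. It was 86.7% and 83.0% in Epsti1 and 52.9% and 63.5% in Pou2f2, a gene at only 0.7 and 1.15 TPM in all. In Fcgr2b it was 14.4% and 16.9%, in Trip4 14.3% and 12.3%, in Srcap 8.38% and 10.7%, and in Cr1l 7.61% and 8.90%. The longer transcripts thus held most of the TPM in 2 of the 6 genes and under 20% in 4, and the replicates differed by at most 10.6 points. Such shares are estimates from reads that fit several transcripts. In 10 further genes the reaching transcript was listed with a shorter length, as in Nudt21 with 5010 nt in GENCODE M21, against 2726 nt in the authors' tables, and in Mrps17 with 5061 nt, against 1199 nt. A shorter length alone does not show which bases were missing, as in 5830473C10Rik with 2308 nt, against 2241 nt. In 7 more genes no reaching transcript was listed, so in those 7 no TPM was given to a transcript known to reach the member.

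**Figure D5:**
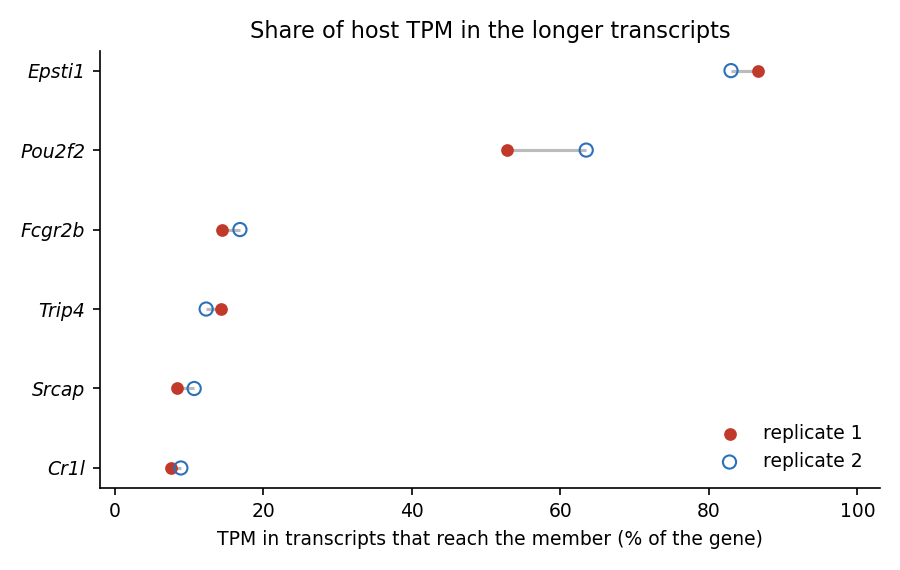
Share of the host's TPM, in percent (x axis), that the authors' tables give to transcripts reaching the member, for 6 genes (y axis) in replicate 1 (filled) and replicate 2 (open). Epsti1 and Pou2f2 lie above 50% in both replicates, and the other 4 genes between 7.61% and 16.9%.

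The 72 members on another later gene, some of which have hosts no longer listed, were most often on pseudogenes. Pseudogenes held 39 of them, protein-coding genes 14 and lincRNAs 12, and 8 of the 66 genes concerned had an identifier in the ENSEMBL 65 table. The rule had removed contigs that overlap any gene span of that table, so a low count here follows from the selection. Exons took up 82.2% of the member at the median on pseudogenes, 42.6% on protein-coding genes and 47.7% on lincRNAs. Of these 72, 11 were nevertheless joined to the upstream host by splice reads, among them the member 9849 nt past ENSMUSG00000035349, which lay in Mia2 and was joined by 85 and 77 reads. Cdkn1b, which encodes the cell-cycle inhibitor p27, had a member of signal 1.95 at 3460 nt that overlapped Lockd, a lincRNA next to it at 48.7 and 60.2 TPM, against 11.4 and 13.7 TPM for Cdkn1b. No splice read joined this member, chosen after its values were seen, to Cdkn1b, and 5.67% of it was exonic.

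Some members belonged instead with the next gene along. Of the 63 members that also lay within 10 kb before another same-strand gene, 14 were joined by splice reads to the gene upstream and 14 to the gene downstream, with 5 joined to both. Some of these joins were thin: 4 of the 14 downstream ones rested on 1 or 2 reads, and 4 of the 5 double ones had 1 or 2 reads on at least 1 side. The member 7996 nt past Rnase13, which was at 0 TPM in both replicates, lay 69 nt before Ndrg2 and was joined to it by 208 and 243 reads. The member 3902 nt past Dpy30, of the histone methyltransferase complexes, was joined to Memo1 by 83 and 75 reads and to Dpy30 by none. The member past Myh9, the non-muscle myosin heavy chain, was joined to Apol8 by 35 and 20. These are values of contigs that the distance rule assigns to the upstream gene although the reads lead to the downstream one.

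The 5 longest members were mostly weak, with 4 of them under a signal of 1. The member 8324 nt past Ints8, a subunit of the Integrator complex, was 14875 nt long with a signal of 0.79, and 93.4% of its stretch was covered on the other strand against 38.6% on its own. The member 5368 nt past Memo1 was 12611 nt long (0.867), with 99.5% of its stretch covered on the host's strand. That of Srcap was 10086 nt long and was joined by 1 read. The member past ENSMUSG00000080335 was 9836 nt long and stronger, at 4.95, lay on the non-coding gene AI506816 and shared an assembled model with its host. That past Eri2, an exoribonuclease-family gene, was 9105 nt long (0.621) and was joined by 2 reads, with 89.4% of its stretch covered on the other strand.

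Most hosts had 1 member, 190 of 214. The pseudogene Gm6483 had 4, with signals from 0.62 to 1.17. Maf1, a repressor of RNA polymerase III, had 3, at 0.539, 0.709 and 0.87, all on Gm35339. The histone H4 gene Hist1h4m had 3 that grew stronger with distance, at 1.32, 3.44 and 7.03, while the host stood at 0.06 and 0 TPM. The authors' mm9 values for this host were higher, at 1.37 and 1.02 RPKM in the 2 libraries. F830016B08Rik had 3, at 1.17, 1.08 and 2.5, and Cr1l had 2, at 0.55 and 1.47. The members of 1 host share its locus and are not separate observations of it.

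Small RNA genes were among the hosts, with 6 members past snoRNA genes, 4 past snRNA genes and 3 past miRNA genes. The member past Mir146 began 6 nt after the hairpin, was 3379 nt long with a signal of 1.37 and was the closest of all members to its host (chromosome 11, 43184515 to 43187893, minus strand). A hairpin of this kind is cut from a longer primary transcript, and 2 assembled models covered both. Mir146 itself was listed at 0 TPM in both replicates. Its 2 mature RNAs, from RefSeq on GRCm38.p6 with bases 2 to 8, the seed, in capitals, are shown because they identify the host; for the other 2 miRNA hosts none was matched.
mmu-miR-146a-5p: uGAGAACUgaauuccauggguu
mmu-miR-146a-3p: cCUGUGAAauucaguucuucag

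Hosts were expressed above most genes but were seldom among the strongest. For the 189 hosts in the TPM tables the median of the replicate means was 3.19 TPM, with 3.12 in replicate 1 and 3.11 in replicate 2, against 0.055 TPM over the 33068 genes of the ENSEMBL 65 table found there. In 65 hosts (34.4%) the mean was below 1 TPM, against 63.1% of all those genes, and 56 reached 10 TPM and 7 reached 100. This level was not particular to hosts of downstream contigs. Genes with a contig before their 5′ end had a median of 4.14 TPM, with 33.2% below 1 TPM. The member's signal was 0.411 of the highest contig signal inside the host at the median, with quartiles of 0.141 and 1.84, and it was above the host's in 73 of 219. For contigs before 5′ ends the median ratio to their gene was 0.413. Across those 219 members Spearman's rho between the 2 signals was -0.00705, a description in which members of 1 host share a point and both values come from the same libraries. The rule kept only members with a signal of at least 0.5, which cuts the range, so rho cannot show whether the 2 signals are related.

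The lists of liver and growth genes held few hosts, beside a share of 0.574% over all gene spans, at which lists of this size hold few or none. Of 37 secreted plasma protein genes 1, Fgb, the fibrinogen beta chain, had members. Its 2 members, of signal 1.21 and 1.04, lay 3268 and 4655 nt past the gene and were 0.00102 and 0.000874 of the signal inside it, with Fgb at 3112 and 3633 TPM. Of 46 erythroid genes 1, Slc25a38, the mitochondrial glycine carrier needed for haem synthesis, had one (0.787, 694 nt), at 43.0 and 51.0 TPM. None of 32 hepatocyte transcription factors, 19 growth and imprinted genes, 30 replication and mitosis genes or 32 RNA-binding and splicing regulators had a member, and counts of 0 and 1 do not set these lists apart from other genes. A missing member does not show that a gene has no longer end.

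The 2 replicates agreed closely on the hosts. Of the 124 hosts with a mean of at least 1 TPM, 1 (0.806%) differed by more than 2-fold on log2(TPM + 1), beside 1.04% of all 12557 genes at that level. It was the small nuclear RNA gene Rnu1b6, at 0 TPM in replicate 1 and 2.06 TPM in replicate 2. For the members themselves, the 2 RPKM values of the assembled exon lay more than 2-fold apart in 25 of 180 (13.9%), beside 19.1% of 836 exons on the other contigs outside gene spans. The median ratio of the higher to the lower value was 1.24 for members and 1.29 for the other contigs. Which of those 2 values belongs to which replicate could not be settled from their names, so no direction is given.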

How the data were processed

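The contig list, with a signal and a score per contig, was deposited by the authors for both replicates together on mm9. Column checks showed the signal to be the mean coverage divided by a constant near 65.4. The score, in the field for an irreproducible discovery rate, was 0 in all members. The deposited junction list gives read counts per replicate. The deposited exon, gene and transcript tables on mm9 (ENSEMBL 65 or Cufflinks models, per the file text) hold 2 RPKM values each, whose order did not follow the replicate numbers: Xist had 0.0362 and 27.0 RPKM there, against 9814 and 1 junction reads in replicates 1 and 2. The authors' mm10 tables (GENCODE M4, per the deposited notes) give an expected count and a TPM value per gene and transcript, and the deposited percent of a gene's TPM per transcript, which was not needed. The sources used here do not give the aligner or quantifier.

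Distances run from the host's last base to the member's first. A member was joined to its host when the exon bases on both sides of a junction fell in the member and in the host's span. Members were set against GENCODE M21 through 69228 transcripts of equal name and span length in both annotations (of 95495), only where the transcripts flanking a member were spaced equally in both. No coordinate is printed from that step. Finding members and placing them was tested on simulated contigs, with no member missed and none misplaced. Expected counts were rounded and scaled with TMM (edgeR 4.0.16, R 4.3.3) or DESeq2 1.42.0 size factors as alternatives to TPM. Python 3.11.15, pandas 2.3.3 and scipy 1.17.1 were used. Replicates are labelled biological. The named members are the 10 strongest, the 5 with most joining reads, the 5 longest, those of the 5 hosts with most members, up to 3 per host list and the 3 nearest the threshold. The 3 contigs just below the threshold, which are not members, are named too. Other named members were chosen after their values were seen. Members and lists were chosen with earlier results of these data known.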

Additional observations from a re-analysis of the deposited data

How the results depend on the processing

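Of 45 alternatives, 29 left a result within 1.5 times a count, a share or a median inside its own error. That error was a 95% interval over members or hosts taken as separate units, and does not measure the spread between libraries. The median host TPM had no such interval, and every change in it was counted as moved. The number of members was 109 at a signal of at least 1, 545 at 0.25, 160 within 5 kb and 376 within 20 kb. The share joined by a splice junction fell to 9.05% with at least 2 reads of 1 junction in each replicate, and was 15.6% to 16.0% with 1 replicate left out. The share in a model with the host was 30% within 5 kb. The median distance there was 1529 nt, fixed by the window. The median ratio to the host's signal was 0.687 at a signal of at least 1. The median host TPM was 2.65 at a signal of at least 1, 4.25 at a length of at least 500 nt, 3.25 within 5 kb, 3.77 without the 41 members on pseudogenes of GENCODE M21, 9.3 for hosts of at least 1 TPM, and 3.11 to 3.12 with 1 replicate left out. The share of hosts that grew past the member was 4.05% by placed ends. The settings without pseudogenes and with placed ends were chosen after seeing the data. The share of hosts beyond 2-fold between replicates kept below 2.5% under every scaling, pseudocount and filter tried, with 2.42% (3 of 124) on scaled counts. Poly(A) signals at the members' own edges were not searched, since no mm9 genome was used here. No paired analysis was possible because there was 1 group. With 2 libraries and a signal pooled over both, no error could be given for a member's signal.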
